A study of Mus musculus with 4 samples.

Results

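The lysyl oxidase family was followed through single-cell RNA counts of smooth muscle cells sorted from the mouse aorta. Its 5 members in the mouse are Lox, Loxl1, Loxl2, Loxl3 and Loxl4, and all 5 have a row among the 32287 rows of each count matrix. Members were taken by name and not by their levels. They were counted in barcodes where 1000 genes or more were detected and no more than 10% of UMIs (unique molecular identifiers, 1 per captured RNA molecule) were mitochondrial.

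All libraries came from Wnt1-Cre2.mT/mG mice at 12 weeks of age. In the mT/mG reporter, cells and their descendants that had Cre activity carry eGFP, and all others carry the red protein tdTomato, which the labels call RFP. Wnt1-Cre2 is a transgene active in the early neural crest, so eGFP marks cells of neural crest descent as far as that transgene reports it. The groups described are Arch-GFP (aortic arch, GFP cells, 8031 cells), the Root library (aortic root, 2960 cells, no colour in its label), Asc-GFP (ascending aorta, GFP cells, 6408 cells) and Asc-RFP (ascending aorta, RFP cells, 4030 cells). Root cells were divided by their own reporter UMIs into 576 Root eGFP cells (at least 8 eGFP and at most 1 tdTomato UMI) and 1832 Root tdTomato cells (at least 2 tdTomato and fewer than 8 eGFP UMIs). The other 552 Root cells, 37 with both reporters and 515 below both limits, entered no comparison. A further limit is that 45 Root cells lay near the eGFP limit, with 4 to 11 eGFP UMIs. All cells were sorted as ITGA8-positive, and no group carried a mutation or treatment beyond the reporter alleles. Each group is 1 library or a part of 1, so no difference between groups could be tested against the spread between animals, and the sources used here do not give the number of animals behind a library.

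Lysyl oxidases are secreted, copper-dependent amine oxidases. They turn lysine side chains of collagens and of tropoelastin into reactive aldehydes, which condense into the cross-links that make collagen fibrils and elastic fibres stiff and insoluble. In the aorta this happens in the medial layer, where smooth muscle cells lay down the elastic lamellae. Mice without Lox die around birth with aortic aneurysms, and variants of human LOX cause heritable thoracic aortic aneurysm.

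The matrices held 41479646 to 104691850 UMIs, and kept cells had medians of 12628 to 13605 UMIs per library. Summed over 12 smooth muscle markers, the level was 53133 to 61048 CPM (UMIs per 1000000 UMIs) in the groups. All 12 were detected in every group. Detection in summed cells does not check the label of smooth muscle, since all 12 were also detected in the endothelial-like and macrophage-like clusters described below. The reporters followed the labels: eGFP stood at 3838 CPM in Arch-GFP, 3673 CPM in Asc-GFP cells and 16.4 CPM in Asc-RFP cells, and tdTomato at 0.0396, 0.297 and 428.4 CPM in those libraries. Other cell types were few but uneven. Summed over 20 macrophage markers, the level was 34.3 CPM in Root eGFP cells against 1097 CPM in Root tdTomato cells, 9.02 CPM in Asc-GFP cells against 278.3 CPM in Asc-RFP cells, and 4.88 CPM in Arch-GFP. Summed over 11 cardiomyocyte markers, it was 394.6 against 1091 CPM, 131.5 against 411.9 CPM and 81.5 CPM in the same order. In each of these groups 3 of the 11 reached 5 CPM. Tnnt2, 1 of the 11, was a leading gene of cluster 0, which held 1428 Root cells, so this sum is not read as a measure of cardiomyocytes. Every library held cells with Xist and cells with Y-linked UMIs, and of the cells that could be assigned a sex, 29.1% were female in Arch-GFP, 87.8% in Root, 70.1% in Asc-GFP and 54.4% in Asc-RFP. Between 4 and 18 barcodes were shared by any 2 libraries, at most 0.347% of the smaller one.

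Levels are UMIs of a gene summed over the cells of a group, as CPM of that group's UMIs. Brackets give exact Poisson 95% intervals for levels, and log2 ratios carry exact conditional 95% intervals. Both cover counting error only, not differences between animals. The 3′ method counts 1 tag per RNA molecule, so levels were not divided by gene length, and levels of different members are not compared.

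Lox, on chromosome 18 from 52516067 to 52529867 on the minus strand (mm10, GENCODE M21), encodes the founding enzyme, which is secreted as a proenzyme and released by the protease BMP1. It stood at 194.1 CPM (191.4 to 196.8) in Arch-GFP, 145.5 CPM (137.1 to 154.3) in Root eGFP cells, 135.1 CPM (130.6 to 139.6) in Root tdTomato cells, 169.6 CPM (166.8 to 172.4) in Asc-GFP cells and 149.4 CPM (146.1 to 152.7) in Asc-RFP. The order ran from the arch through the ascending aorta to the root, and within the ascending aorta and the root the eGFP cells stood above the tdTomato cells. The whole span was 0.52 log2 units, and only the step between Asc-RFP and Root eGFP cells had an interval that held 0. Lox was detected in most cells: 79.5% of Arch-GFP, 75.3% of Root eGFP, 74.8% of Root tdTomato, 78.9% of Asc-GFP and 74.4% of Asc-RFP cells had a UMI.

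Loxl1, on chromosome 9 from 58287738 to 58313186 on the minus strand, encodes the member most tied to elastic fibre upkeep in the adult mouse, where it is brought to elastin by fibulin-5. It stood at 163.0 CPM (160.5 to 165.5) in Arch-GFP, 104.3 CPM (97.2 to 111.8) in Root eGFP cells, 101.9 CPM (98.0 to 105.9) in Root tdTomato cells, 134.8 CPM (132.4 to 137.3) in Asc-GFP cells and 118.1 CPM (115.2 to 121.0) in Asc-RFP. Its groups came in the same order as those of Lox, over 0.68 log2 units, and the interval between the 2 Root groups held 0.

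Loxl2, on chromosome 14 from 69609068 to 69695834 on the plus strand, belongs with Loxl3 and Loxl4 to the branch whose proteins carry scavenger receptor cysteine-rich domains. LOXL2 is best known for cross-linking collagen IV of basement membranes. It stood at 18.4 CPM (17.6 to 19.3) in Arch-GFP, 9.13 CPM (7.11 to 11.5) in Root eGFP cells, 15.9 CPM (14.4 to 17.6) in Root tdTomato cells, 10.8 CPM (10.1 to 11.5) in Asc-GFP cells and 29.3 CPM (27.9 to 30.8) in Asc-RFP. Its order was its own: Asc-RFP came highest, then Arch-GFP, Root tdTomato, Asc-GFP and Root eGFP cells, over 1.68 log2 units, with the last 2 not apart beyond their interval. By count, the eGFP cells were thus the lower ones in the root and in the ascending aorta, the opposite side from Lox.

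Loxl3, on chromosome 6 from 83034173 to 83052562 on the plus strand, is needed for palate and spine development in the mouse. It stood at 27.0 CPM (26.0 to 28.1) in Arch-GFP, 15.4 CPM (12.7 to 18.4) in Root eGFP cells, 10.5 CPM (9.24 to 11.8) in Root tdTomato cells, 23.2 CPM (22.1 to 24.2) in Asc-GFP cells and 19.6 CPM (18.4 to 20.8) in Asc-RFP. Its groups stood in the order of Lox and Loxl1, but over 1.37 log2 units, and no neighbouring pair had an interval that held 0. The 3′ end of Loxl3 overlaps Htra2 on the opposite strand, a mitochondrial protease gene with 17.3 to 25.3 CPM in these groups. The sources used here do not say whether strand was used in counting, so a part of either count could belong to the other gene. Lox overlaps the antisense gene AC161119.1, which had 3.62 to 6.90 CPM, and Loxl2 the antisense gene Gm27177, which had no UMI in any group.

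Loxl4, on chromosome 19 from 42593982 to 42612813 on the minus strand, is a further member of the scavenger receptor branch. It was close to undetected, with 58 UMIs in Arch-GFP (0.574 CPM), 1 UMI in Root eGFP cells (0.130 CPM), 8 UMIs in Root tdTomato cells (0.311 CPM), 38 UMIs in Asc-GFP (0.452 CPM) and 16 UMIs in Asc-RFP (0.297 CPM). Its widest ratio, Arch-GFP over Root eGFP cells, had a log2 value of 2.14 with an interval from -0.40 to 7.47, and each step between neighbouring groups in its order had an interval that held 0. It stayed below the floor of 5 CPM used for the comparisons in every group.

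**Figure D1:**
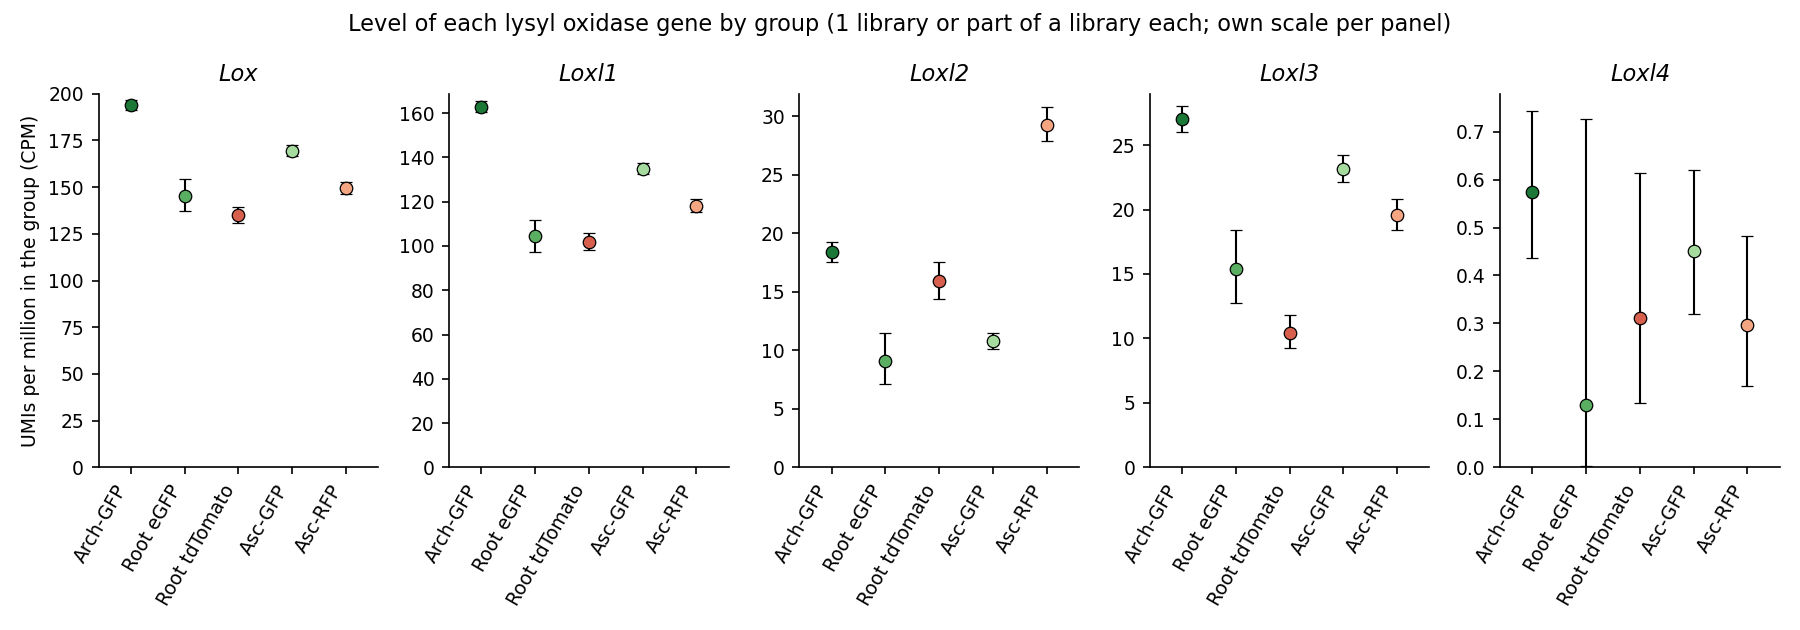
CPM (linear axis from 0, own scale per panel) of each of the 5 members in Arch-GFP, Root eGFP, Root tdTomato, Asc-GFP and Asc-RFP cells. Points are summed levels and bars exact Poisson 95% intervals of the count. Lox, Loxl1 and Loxl3 are highest in Arch-GFP (194.1, 163.0 and 27.0 CPM), and Loxl2 is highest in Asc-RFP (29.3 CPM).

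Free RNA in the droplets sets a background for these values. For shares, each cell was thinned to 4000 UMIs, which left out 787 Arch-GFP, 5 Root eGFP, 35 Root tdTomato, 283 Asc-GFP and 415 Asc-RFP cells and 35 of the 106 macrophage-like Root cells as too shallow. Lox was found in 51.8% of Arch-GFP, 41.7% of Root eGFP, 37.6% of Root tdTomato, 46.3% of Asc-GFP and 42.4% of Asc-RFP cells, against 14.1% (6.97 to 24.4, exact binomial) of the macrophage-like Root cells. Loxl1 was found in 47.0%, 32.4%, 32.0%, 40.7% and 35.7% of those groups, against 11.3% of macrophage-like cells. In every group both shares stood above the upper bound of the background in these Root cells (24.4% for Lox and 21.0% for Loxl1).

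For Loxl2 the margin was thin. The thinned share was 6.94% in Arch-GFP, 2.80% in Root eGFP, 5.45% in Root tdTomato, 3.80% in Asc-GFP and 10.3% in Asc-RFP cells, and 2.82% (0.343 to 9.81) in macrophage-like Root cells. The share in Root eGFP cells is therefore no higher than background and is not read as expression, and of the 5 groups Asc-RFP alone lay above the upper bound of that background, which comes from another library. For Loxl3 the shares were 10.3%, 7.01%, 4.06%, 8.59% and 7.33% in the same order, against 2.82% in macrophage-like cells, and Arch-GFP alone lay above the same bound. Before thinning, the macrophage-like Root cells had a median of 7516 UMIs, against 12628 to 13747 in the 5 groups. A UMI of Loxl2 was found in 4.72% of them, against 17.7%, 10.2%, 16.5%, 11.2% and 26.9% of the groups. In CPM these Root cells stood at 4.90 (1.59 to 11.4) for Loxl2 and 3.92 (1.07 to 10.03) for Loxl3. For Loxl2, the level intervals of Arch-GFP, Root tdTomato and Asc-RFP cells lay above this, and those of Root eGFP and Asc-GFP cells overlapped it. For Loxl3, every group lay above it except Root tdTomato cells, whose interval overlapped. The share bounds rest on 71 thinned cells, and only the Root groups share a library with them. In Asc-RFP, where macrophage-like cells were most numerous, those 292 cells had 99.7 CPM (81.6 to 120.6) of Lox, 70.6 CPM (55.5 to 88.4) of Loxl1, 21.6 CPM (13.7 to 32.5) of Loxl2 and 11.3 CPM (5.83 to 19.7) of Loxl3. The Asc-RFP group's own 149.4 CPM of Lox and 118.1 CPM of Loxl1 lay above these intervals, while its 29.3 CPM of Loxl2 and 19.6 CPM of Loxl3 lay within them. How much of this came from muscle RNA was not tested.

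A member was counted as past the fold when its log2 ratio was at least 0.5 in size and it had at least 5 CPM in either group. With 1 library per group this is a rule of size and not a test, and the share of all genes past the same fold is given as its background.

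Within the ascending aorta, GFP cells were set against RFP cells, which compares the reporter colours at 1 site. These are separate libraries, so descent cannot be told apart from their other differences, such as female share and macrophage markers. Loxl2 was the member that differed, at 10.8 CPM in Asc-GFP cells against 29.3 CPM in Asc-RFP cells, a log2 ratio of -1.44 (-1.56 to -1.32). Of the 5 members 1 was past the fold, where 3.58% of 9711 genes were (1.66% higher and 1.93% lower in Asc-GFP cells). Lox (0.18), Loxl1 (0.19) and Loxl3 (0.24) were slightly higher in Asc-GFP than in Asc-RFP, with intervals clear of 0 and inside the fold. Macrophage markers differed the same way as Loxl2 between these libraries, and without the macrophage-like and endothelial-like clusters the Loxl2 ratio was -1.45. The thinned Loxl2 share of Asc-GFP lay within the background's interval. The Asc-RFP level of Loxl2 lay within the interval of that library's own macrophage-like cells. The Loxl2 ratio is therefore given as one of counts, and the part of free RNA in it was not tested.

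In the root, eGFP cells were set against tdTomato cells of the same library. Loxl2 was again lower, at 9.13 CPM in Root eGFP against 15.9 CPM in Root tdTomato cells (-0.80, -1.19 to -0.44), and Loxl3 was higher, at 15.4 CPM against 10.5 CPM (0.56, 0.23 to 0.87). These 2 members passed the fold, where 5.52% of 9855 genes did (1.66% higher and 3.86% lower in Root eGFP cells). Lox (0.11) and Loxl1 (0.03) lay close to 0. The counts behind the Root eGFP values are small, 70 UMIs of Loxl2 and 118 UMIs of Loxl3. The thinned Loxl2 share in Root eGFP cells was no higher than background and that in Root tdTomato cells lay within the background's interval, so the Loxl2 ratio is given as a ratio of counts and is not read as a difference in expression. The thinned Loxl3 shares of Root eGFP and Root tdTomato cells also lay within the background's interval, so the Loxl3 ratio is likewise one of counts. The Loxl3 ratio averaged 0.46 within shared clusters, below the fold, so that 1 member, Loxl2, remained past it there.

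Arch-GFP was set against Asc-GFP to compare segments within the GFP lineage, and all 4 measurable members were higher in the arch. Loxl2 stood at 18.4 CPM in Arch-GFP against 10.8 CPM in Asc-GFP (0.77, 0.66 to 0.89) and was the 1 member past the fold, where 2.88% of 9733 genes were (2.15% higher and 0.729% lower in Arch-GFP). Lox was higher by 0.19, Loxl1 by 0.27 and Loxl3 by 0.22 on the log2 scale. The Loxl2 difference rested in part on a single cluster of arch cells, described with the clusters: without it the ratio was 0.44, and within shared clusters it averaged 0.48, both below the fold, so that no member passed. The thinned Loxl2 shares of Arch-GFP and Asc-GFP lay within the interval of the background, which comes from another library, so this ratio is one of counts.

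The root stood below the ascending aorta in all 8 ratios of Lox, Loxl1, Loxl2 and Loxl3 on the 2 lineages, with 1 interval that held 0. Immediate-early genes moved with this contrast: summed over 17 of them, the level was 4666 CPM in Root eGFP cells against 2991 CPM in Asc-GFP, and 4202 CPM in Root tdTomato cells against 3151 CPM in Asc-RFP, and their part in the members' ratios was not tested beyond leaving out cluster 1. In eGFP cells, Loxl3 was at 15.4 CPM in Root eGFP cells against 23.2 CPM in Asc-GFP (-0.59, -0.87 to -0.32), and 1 member passed the fold, where 7.79% of 9745 genes did (3.81% higher and 3.98% lower). Loxl1 differed by -0.37, Lox by -0.22 and Loxl2 by -0.24, the last with an interval from -0.61 to 0.11. In tdTomato cells, 2 members passed, where 8.18% of 9888 genes did (5.25% higher and 2.93% lower): Loxl2 at 15.9 CPM in Root tdTomato cells against 29.3 CPM in Asc-RFP (-0.88, -1.04 to -0.72), and Loxl3 at 10.5 CPM against 19.6 CPM (-0.91, -1.10 to -0.71). There Loxl1 differed by -0.21 and Lox by -0.15. For Lox the sign depended on the mix of cells, since its mean ratio within shared clusters was 0.12. The Loxl3 ratio in eGFP cells was below the fold in male cells (-0.41), with a stricter cell filter (-0.41), after thinning (-0.35) and without the cluster led by immediate-early genes (-0.31). By cluster it was -1.25 in cluster 1 and 0.10 (-0.39 to 0.55) in cluster 4, at 25.6 CPM in Root eGFP cells against 23.9 CPM in Asc-GFP. The Loxl2 ratio in tdTomato cells was below the fold in male cells (-0.39). The thinned shares of Loxl2 and Loxl3 in the 2 Root groups lay within the background's interval, so their ratios here are ones of counts.

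Of the 3 comparisons among eGFP groups, Arch-GFP against Root eGFP cells had the widest ratio for each of Lox, Loxl1, Loxl2 and Loxl3. Loxl2 stood at 18.4 CPM in Arch-GFP against 9.13 CPM in Root eGFP cells (1.01, 0.67 to 1.38), Loxl3 at 27.0 against 15.4 CPM (0.81, 0.55 to 1.09) and Loxl1 at 163.0 against 104.3 CPM (0.64, 0.54 to 0.75). These 3 members passed the fold, where 12.2% of 9878 genes did (7.36% higher and 4.82% lower in Arch-GFP). By thinned share, Loxl2 in Root eGFP cells was no higher than background and in Arch-GFP lay within its interval, so this ratio too is one of counts. The Loxl3 share of Root eGFP cells lay within the background's interval for that member as well. Loxl1 was below the fold within shared clusters, at 0.44, and Loxl3 was at 1.53 in cluster 1 but 0.10 (-0.36 to 0.59) in cluster 4. Lox was at 194.1 CPM against 145.5 CPM (0.42, 0.33 to 0.50). The 3 comparisons among Arch-GFP, Asc-GFP and Root eGFP cells share their groups and are not independent of each other.

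**Figure D2:**
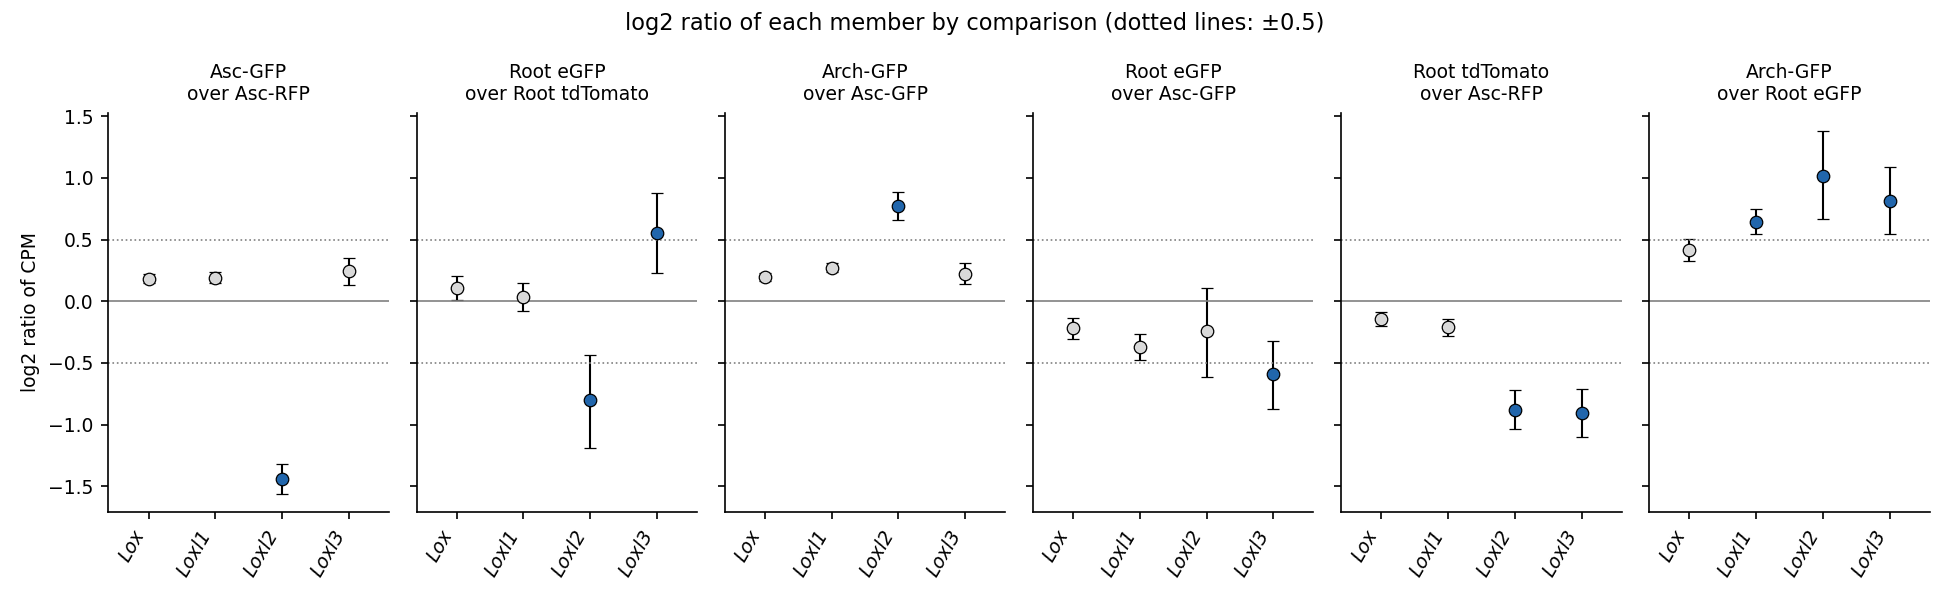
log2 ratio of CPM (y axis) of Lox, Loxl1, Loxl2 and Loxl3 in each of the 6 comparisons, named above each panel as the first group over the second. Bars are exact conditional 95% intervals of the counts, dotted lines mark ±0.5, and filled blue points are past that fold. Loxl2 is at -1.44 for Asc-GFP over Asc-RFP and at 1.01 for Arch-GFP over Root eGFP cells.

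All kept cells were clustered without the 5 members, the reporters or the sex-linked genes, so the members' levels within clusters were not used to form them. Cluster 0 (1581 cells, 1428 of them from Root) was led by Tnnt2, Cp, Pln and Dcn. Cluster 1 was led by immediate-early genes such as Fos, Atf3 and Egr1, cluster 2 by chaperone genes such as Dnaja1 and Hspb1, cluster 3 by Ccn5, Rbp4 and Wif1, and cluster 4, the largest with 5830 cells, by Des, Aspn and Tnxb. Cluster 6 held 1199 cells, 1164 of them from Arch-GFP, and was led by Adamtsl1, Prss12, Tshz2, Fbln1 and Prrx2. Cluster 7 (2417 cells, median 4844 UMIs) and cluster 9 (201 cells, median 2162 UMIs) were shallow and stay unnamed. Clusters 5 (69 cells) and 8 (424 cells) were endothelial-like and macrophage-like.

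Cluster 6 had the highest level of every measurable member among the 6 larger clusters of Arch-GFP. There Lox was at 263.1 CPM, against 155.9 to 240.5 CPM in the Arch-GFP cells of clusters 1, 2, 3, 4 and 7. Loxl1 was at 221.6 CPM against 135.1 to 161.0 CPM, and Loxl3 at 33.7 CPM against 23.9 to 27.4 CPM. The contrast was widest for Loxl2, at 39.0 CPM (36.0 to 42.3) against 10.2 to 16.4 CPM. The Arch-GFP cells of clusters 1, 2, 3, 4 and 7 had log2 ratios of Loxl2 over the same cluster of Asc-GFP of 0.70, 0.52, 0.09, 0.39 and 0.76, and only in cluster 3 did the interval hold 0.

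In counts, Loxl2 was lower in Asc-GFP than in Asc-RFP in each of the 4 clusters that both libraries filled. It was 9.26 CPM in Asc-GFP cells against 33.2 CPM in Asc-RFP cells in cluster 1 (-1.84), 10.8 against 27.6 CPM in cluster 2 (-1.35), 9.53 against 17.3 CPM in cluster 3 (-0.86) and 12.6 against 31.5 CPM in cluster 4 (-1.33). No interval came closer to 0 than -0.53. In the root, it was 12.4 CPM in eGFP cells against 14.0 CPM in tdTomato cells in cluster 0 (-0.18, -0.77 to 0.36), 8.54 against 22.7 CPM in cluster 1 (-1.41) and 6.25 against 14.2 CPM in cluster 4 (-1.18). By count, Root eGFP cells were thus lower in clusters 1 and 4, from 24 and 10 UMIs, and not detectably lower in cluster 0. As in the whole root, this is not read as a difference in expression.

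Lox in the root differed between clusters. In Root eGFP cells it was at 97.7 CPM in cluster 0, 169.8 CPM in cluster 1 and 162.6 CPM in cluster 4, against 112.2, 169.8 and 163.4 CPM in Root tdTomato cells. Root eGFP cells were lower in cluster 0 (-0.20, -0.40 to -0.01), and in clusters 1 and 4 the intervals held 0, from -0.16 to 0.16 and from -0.22 to 0.20. Loxl1 stayed between 92.3 and 115.7 CPM in those 6 sets of cells.

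Loxl3 in Root eGFP cells was uneven across clusters, at 14.7 CPM in cluster 0, 9.25 CPM in cluster 1 and 25.6 CPM in cluster 4, against 9.80, 12.2 and 11.4 CPM in Root tdTomato cells. By count, Loxl3 was higher in Root eGFP cells in clusters 0 and 4 and not in cluster 1. The Root eGFP values rest on 38, 26 and 41 UMIs in clusters 0, 1 and 4. The thinned Loxl3 shares of both Root groups lay within the background's interval, so this is not read as a difference in expression.

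**Figure D3:**
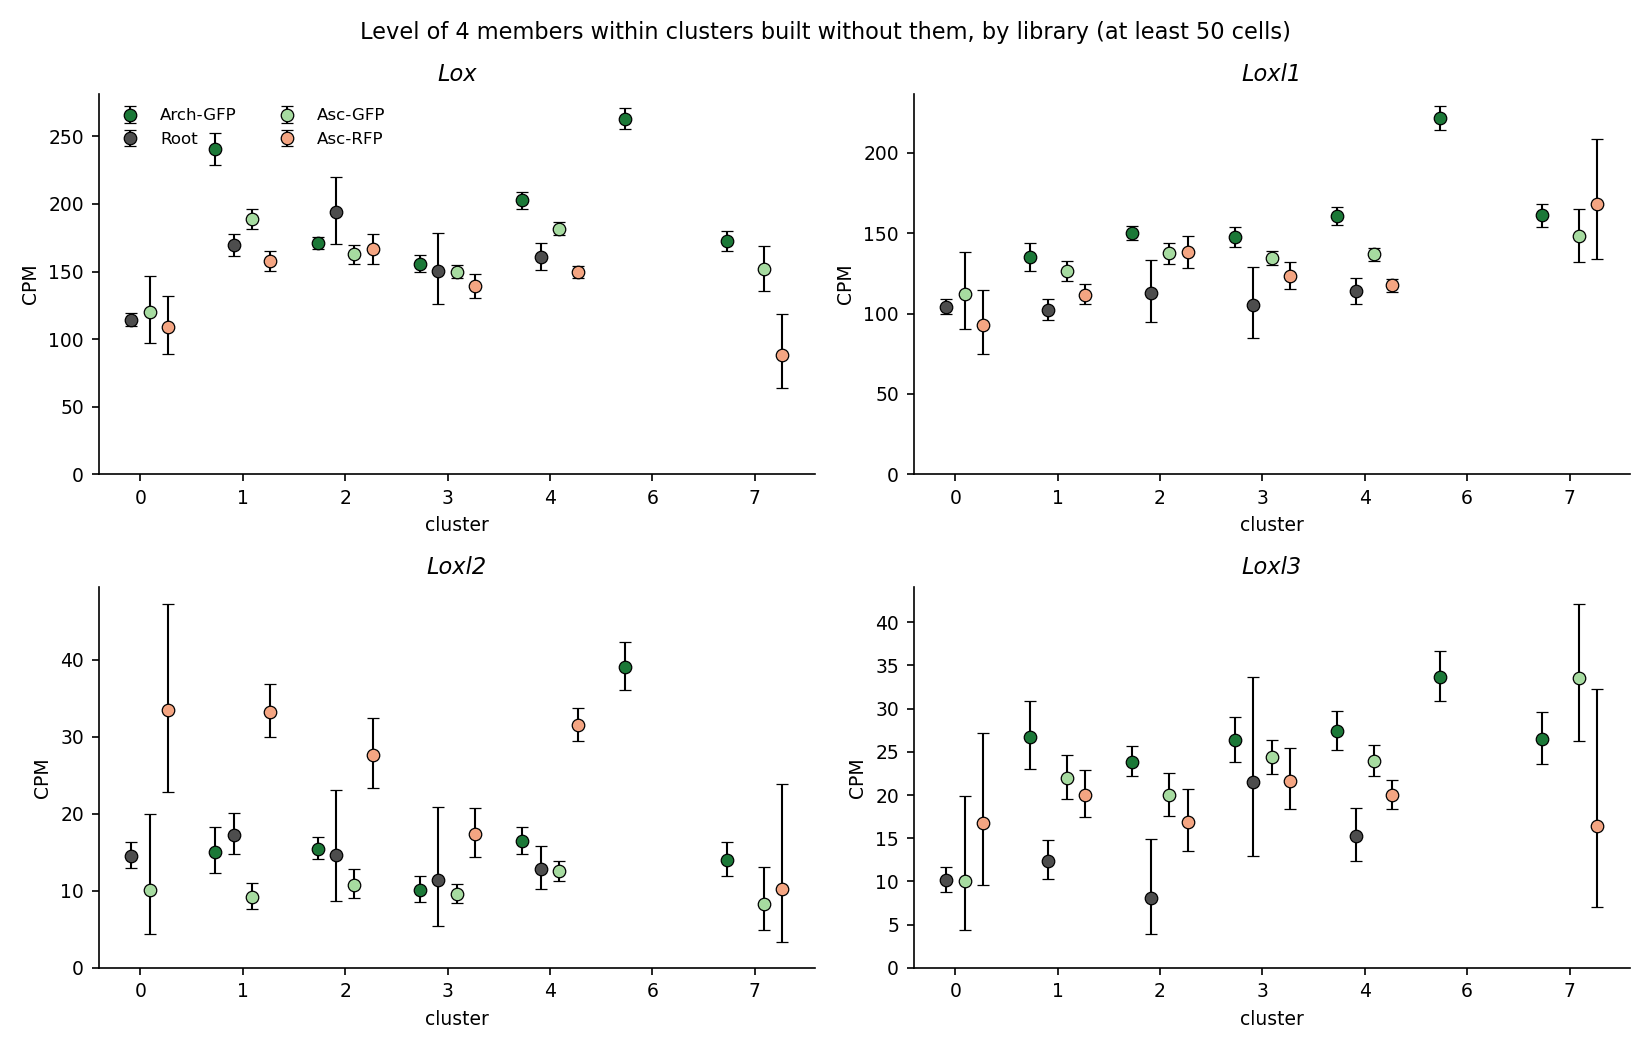
CPM (linear axis from 0) of Lox, Loxl1, Loxl2 and Loxl3 by cluster (x axis) and library (colours: Arch-GFP, Root, Asc-GFP, Asc-RFP), for sets of at least 50 cells and without the clusters of other cell types. Bars are exact Poisson 95% intervals. Loxl2 is at 39.0 CPM in the Arch-GFP cells of cluster 6, and the Asc-RFP point lies above the Asc-GFP point in clusters 1 to 4.

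The mix of female and male cells differed between libraries, and Lox differed between the sexes within them. Lox was at 233.4 CPM in female against 183.3 CPM in male cells of Arch-GFP (log2 ratio 0.35, 0.30 to 0.40), 153.4 against 106.8 CPM in Root eGFP cells (0.52, 0.20 to 0.86), 140.8 against 105.9 CPM in Root tdTomato cells (0.41, 0.25 to 0.58), 182.8 against 149.3 CPM in Asc-GFP (0.29, 0.23 to 0.35) and 153.8 against 144.9 CPM in Asc-RFP (0.09, 0.02 to 0.15). Female cells stood higher in all 5 groups, with every interval above 0. That held for 1.46% of 10411 genes off the X and Y chromosomes. This share was not matched for level, and genes with more UMIs have narrower intervals, so it does not show how unusual Lox is. Some immediate-early genes, Atf3, Jun, Ier3, Hspa1a and Hspa1b, were higher in female cells by the same rule. Some smooth muscle markers, Acta2, Tagln, Myl9 and Tpm2 among them, were lower. Their part in the Lox ratios was not tested. Animals and sexes cannot be told apart here, because the cells of a sex come from an unknown number of mice.

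Within clusters, Lox was higher in female cells in 10 of 11 sets with at least 100 cells of each sex, and the interval lay above 0 in 9 of them. The exception was the shallow cluster 7 of Arch-GFP, at 161.5 CPM in female against 180.6 CPM in male cells (-0.16, -0.35 to 0.03). The order of the groups for Lox was the same among female cells and among male cells as among all cells. The ratio of Arch-GFP over Root eGFP cells was 0.42 in all cells but 0.61 in female and 0.78 in male cells, past the fold, while that of Asc-GFP over Asc-RFP was 0.25 in female and 0.04 in male cells.

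The other members did not share this pattern. Loxl1 was at 158.9 CPM in female against 165.0 CPM in male cells of Arch-GFP (-0.05), and no interval of Loxl1 was clear of 0 in any of the 5 groups. Loxl2 was at 11.9 against 9.42 CPM in Asc-GFP (0.34, 0.11 to 0.58) and at 14.6 against 23.0 CPM in Root tdTomato cells (-0.65, -1.03 to -0.27), so its direction was not the same in every group. Loxl3 was at 30.8 against 26.1 CPM in Arch-GFP (0.24, 0.11 to 0.37), with intervals that held 0 in the other groups. The lower Loxl2 of Asc-GFP against Asc-RFP was present in both sexes, at -1.30 in female and -1.68 in male cells.

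**Figure D4:**
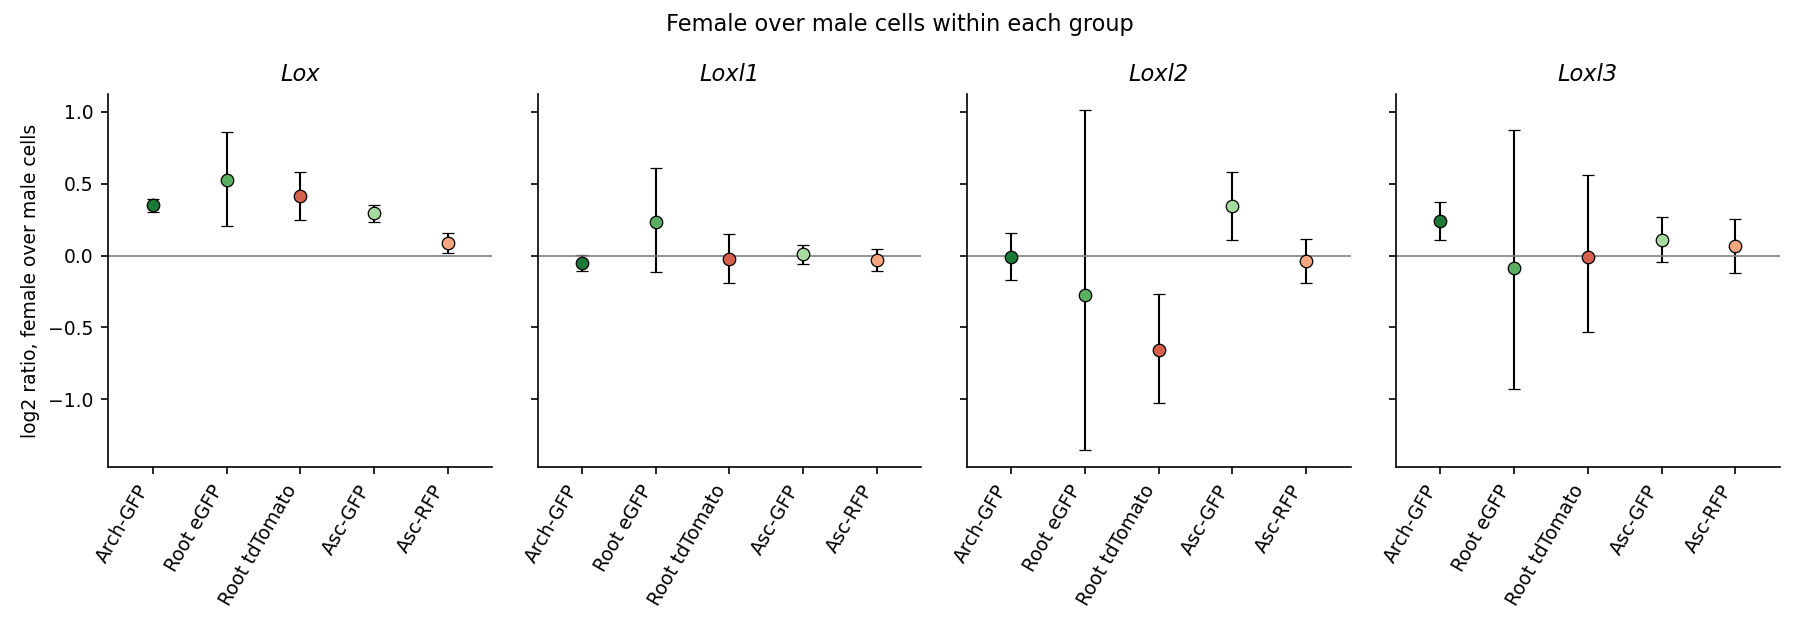
log2 ratio of female over male cells (y axis) for Lox, Loxl1, Loxl2 and Loxl3 in Arch-GFP, Root eGFP, Root tdTomato, Asc-GFP and Asc-RFP cells, with exact conditional 95% intervals. The 5 Lox points lie between 0.09 and 0.52, and the Loxl1 points lie around 0.

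Cells were also ranked within each group by their UMIs of elastin (Eln), a main substrate of the family, after thinning to 4000 UMIs, and cut into quintiles. These are descriptions of cells that share a library. Lox was at 161.7 CPM in the lowest and 270.4 CPM in the highest quintile of Arch-GFP, 87.0 and 188.6 CPM in Root eGFP cells, 86.1 and 185.2 CPM in Root tdTomato cells, 132.0 and 228.6 CPM in Asc-GFP, and 101.3 and 189.1 CPM in Asc-RFP. Cells rich in Eln RNA were thus rich in Lox RNA in all 5 groups, with intervals that did not overlap. Loxl1 followed Eln in 4 groups, for example at 140.3 and 208.2 CPM in Arch-GFP and 65.3 and 147.6 CPM in Root tdTomato cells, while in Root eGFP cells the counts, 46 and 54 UMIs, had overlapping intervals.

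Loxl2 differed between these quintiles beyond its intervals in the arch alone. It was at 14.3 and 28.1 CPM in the lowest and highest quintiles of Arch-GFP, but at 18.1 and 10.4 CPM in Root tdTomato cells, 11.2 and 11.6 CPM in Asc-GFP cells and 29.0 and 23.9 CPM in Asc-RFP. In each of the 5 quintiles, Asc-GFP stayed below Asc-RFP for Loxl2. Loxl3 was at 25.4 and 34.7 CPM in Arch-GFP and at 15.7 and 24.9 CPM in Asc-GFP, and its intervals overlapped in the other groups.

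Ranking by the summed UMIs of Col1a1 and Col3a1, chains of the main fibrillar collagens, gave the same direction for Lox, with 177.0 and 225.0 CPM in the lowest and highest quintiles of Arch-GFP, 90.3 and 172.7 CPM in Root tdTomato cells, 146.7 and 215.7 CPM in Asc-GFP cells and 116.2 and 183.6 CPM in Asc-RFP. In Root eGFP cells the values, 119.6 and 184.2 CPM, had overlapping intervals. Ranking by the 12 smooth muscle markers gave the opposite one in 3 libraries. There Lox was at 246.6 CPM in the lowest and 164.4 CPM in the highest quintile of Arch-GFP, 191.8 and 141.8 CPM in Asc-GFP, and 168.4 and 117.6 CPM in Asc-RFP. In Root eGFP cells it was at 134.8 and 105.3 CPM and in Root tdTomato cells at 122.9 and 115.6 CPM, with overlapping intervals. Across quintiles of immediate-early genes, which respond within minutes to stimulation and to handling of cells, Lox was at 185.8 and 210.1 CPM in Arch-GFP and 160.6 and 186.7 CPM in Asc-GFP, both with intervals that did not overlap. The Lox intervals overlapped in Root eGFP, Root tdTomato and Asc-RFP cells. Loxl3 was lower in the highest quintile of Arch-GFP, at 31.9 and 21.8 CPM. The same held in Root eGFP cells, at 30.4 CPM (16.6 to 51.1) and 4.39 CPM (0.531 to 15.8), from 14 and 2 UMIs. In neither of these groups did the Loxl3 intervals overlap. They did overlap in Root tdTomato, Asc-GFP and Asc-RFP cells, and in Root tdTomato cells the highest quintile stood slightly above the lowest.

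**Figure D5:**
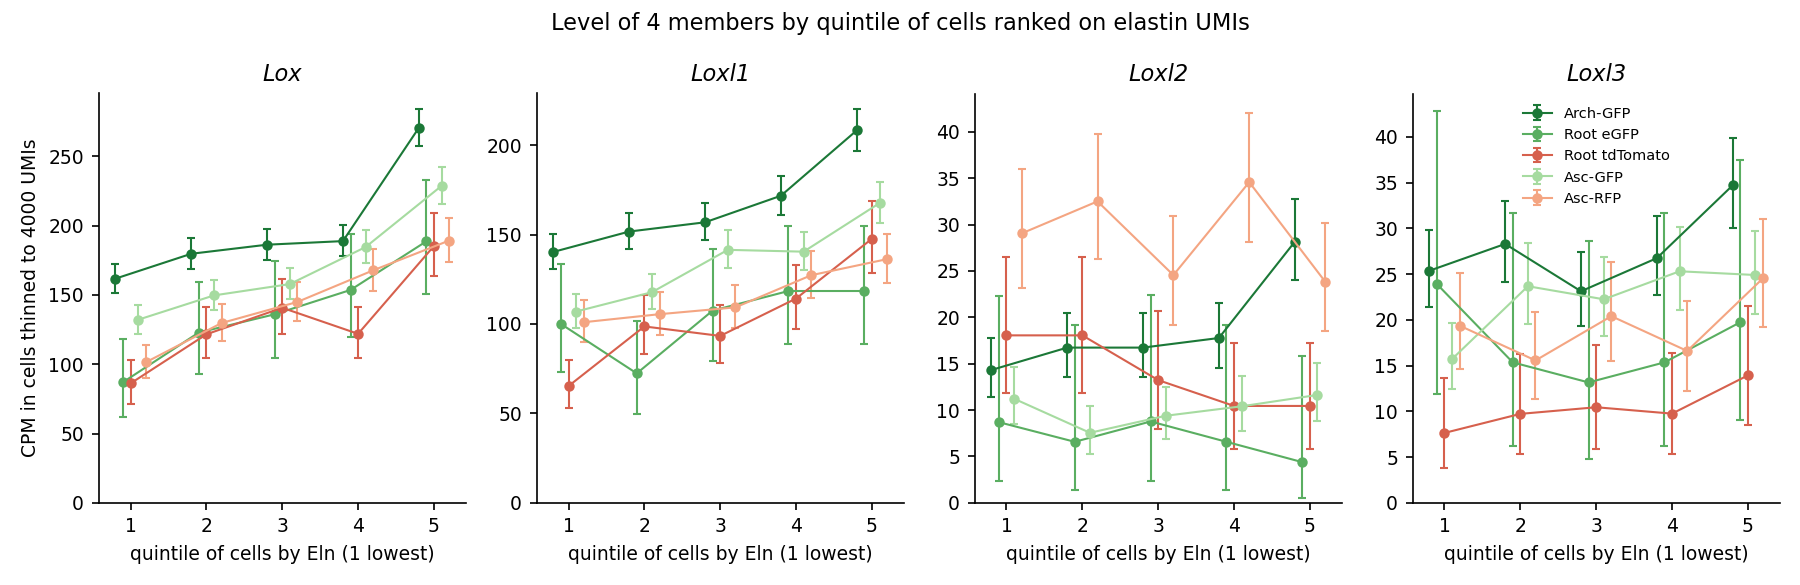
CPM (linear axis from 0, cells thinned to 4000 UMIs) of 4 members in quintiles of cells ranked by elastin UMIs within each group, with exact Poisson 95% intervals. Lox is at 161.7 CPM in the lowest and 270.4 CPM in the highest quintile of Arch-GFP, while Loxl2 in Asc-GFP stays at 11.2 and 11.6 CPM.

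Whether a cell held 2 members together was described by the number of thinned cells with both, over the number given by the product of their shares. Lox and Loxl1 were found together in 1812 of 7244 Arch-GFP cells, a ratio of 1.03 (0.987 to 1.07), and in 1201 of 6125 Asc-GFP cells, a ratio of 1.04 (0.988 to 1.09). For the 6 pairs of the 4 measurable members the Pearson correlations between thinned counts lay between -0.05 and 0.05 in the 5 groups. In counts this sparse, such values do not bear on whether the members are linked. Loxl2 and Loxl3 were found together in 0 of 571 Root eGFP cells, where the product of shares gave 1.12 cells.

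Genes that work with the family were followed in 9 lists. Their counts are to be read beside the share of all genes past the fold. That share was 3.58% in Asc-GFP against Asc-RFP, 5.52% in Root eGFP against Root tdTomato cells and 2.88% in Arch-GFP against Asc-GFP. It was 7.79% in Root eGFP cells against Asc-GFP, 8.18% in Root tdTomato cells against Asc-RFP and 12.2% in Arch-GFP against Root eGFP cells. Of the 16 measured genes of collagen lysine and proline modification, a list that holds the lysyl hydroxylases Plod1, Plod2 and Plod3, 0 were past the fold in Asc-GFP against Asc-RFP, in Root eGFP against Root tdTomato cells and in Arch-GFP against Asc-GFP. In each of the other 3 comparisons 1 of the 16 was past it. With 16 genes, counts of 0 and 1 are not read apart from the shares of all genes. P3h2, a collagen prolyl 3-hydroxylase, was at 10.7 CPM in Root tdTomato cells against 24.2 CPM in Asc-RFP (-1.17), and Fkbp10, a collagen chaperone, at 41.6 CPM in Arch-GFP against 27.0 CPM in Root eGFP cells (0.62).

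Genes of elastic fibre assembly were lower in the root than in the ascending aorta more often than higher. Of 14 measured genes of elastic fibre assembly, 5 were lower in Root eGFP cells than in Asc-GFP and 0 higher, with a list median of -0.30 against -0.01 over all genes tested. Of all genes, 3.98% were lower there and 3.81% higher. Eln was at 1393 CPM in Root eGFP cells against 2276 CPM in Asc-GFP (-0.71), and the microfibril proteins Mfap4 (354.6 against 884.1 CPM, -1.32) and Mfap5 (193.4 against 571.7 CPM, -1.56) lay lower still. In tdTomato cells 4 of 15 were lower and 1 higher (2.93% and 5.25% of all genes), with a median of -0.14 against 0.01, and Eln was at 1175 CPM in Root tdTomato cells against 1668 CPM in Asc-RFP (-0.51). In Arch-GFP against Root eGFP cells 8 of 15 were higher and 0 lower (7.36% and 4.82% of all genes), with a median of 0.52 against 0.05. Between lineages in the ascending aorta 2 of 15 were lower in Asc-GFP than in Asc-RFP and 0 higher (1.93% and 1.66% of all genes). In the root 3 of 15 were lower in Root eGFP than in Root tdTomato cells (3.86% of all genes), Mfap4 among them (354.6 against 525.1 CPM, -0.57). Between Arch-GFP and Asc-GFP 3 of 15 were higher and 0 lower (2.15% and 0.729% of all genes): Ltbp2, a latent TGF-beta binding protein of elastic fibres, was at 82.7 against 43.0 CPM (0.94), and Fbln1, a fibulin that leads cluster 6, at 41.6 against 2.15 CPM (4.27).

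Collagen chains were mixed. Of 16 measured, 5 were lower and 3 higher in Root eGFP cells than in Asc-GFP (median -0.26 against -0.01 over all genes, of which 3.98% were lower and 3.81% higher). In Root tdTomato cells against Asc-RFP 4 were lower and 2 higher (median -0.31 against 0.01, with 2.93% of all genes lower and 5.25% higher). Col6a1 and Col6a2 of the beaded-filament collagen VI were at 88.8 against 154.8 CPM (-0.80) and 94.4 against 169.8 CPM (-0.85) in the first of these, while Col8a1, a short-chain collagen, was at 27.4 CPM in Root eGFP cells against 2.96 CPM in Asc-GFP (3.21). Col14a1, a fibril-associated collagen, was lower in the eGFP cells at both sites, at 103.5 CPM in Asc-GFP cells against 189.3 CPM in Asc-RFP cells (-0.87) and 162.2 CPM in Root eGFP against 257.3 CPM in Root tdTomato cells (-0.67). It was also higher in the arch, at 178.4 CPM in Arch-GFP against 103.5 CPM in Asc-GFP (0.79). In Arch-GFP against Root eGFP cells 7 of 16 chains were higher and 2 lower (7.36% and 4.82% of all genes).

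Among 10 measured processing and scaffold genes, 4 were higher and 1 lower in Root eGFP cells than in Asc-GFP (3.81% and 3.98% of all genes). The lower one was Bmp1, the protease that activates Lox, at 17.7 CPM against 27.0 CPM (-0.61), and it was at 30.3 CPM in Arch-GFP against 17.7 CPM in Root eGFP cells (0.77). Thbs1, a matricellular protein, was at 48.6 CPM in Root eGFP cells against 3.06 CPM in Asc-GFP (3.99). Dcn, a collagen-binding proteoglycan, was at 16.1 CPM in Asc-GFP cells against 59.0 CPM in Asc-RFP cells (-1.87) and at 28.4 CPM in Root eGFP against 143.0 CPM in Root tdTomato cells (-2.33). Pcolce2, which enhances procollagen cleavage by Bmp1, was at 95.01 CPM in Asc-GFP cells against 66.7 CPM in Asc-RFP cells (0.51). Pcolce, on the same list, went the other way, at 7.07 CPM in Asc-GFP cells against 16.1 CPM in Asc-RFP cells. Of the 10 measured genes of the list, 1 was higher and 4 were lower in Asc-GFP than in Asc-RFP (1.66% and 1.93% of all genes). Of the 15 measured copper genes, 1 was past the fold in each of the 2 lineage comparisons (Cp, lower in the eGFP cells) and in Arch-GFP against Asc-GFP (Steap3, a metal reductase, higher). There were 2 in each comparison of root with ascending aorta and 5 in Arch-GFP against Root eGFP cells. Of all genes, 3.58% and 5.52% passed in the lineage comparisons and 2.88% in Arch-GFP against Asc-GFP. In the comparisons with the root, 7.79% (eGFP cells), 8.18% (tdTomato cells) and 12.2% (Arch-GFP against Root eGFP cells) passed. Sod3, an extracellular copper enzyme, was at 441.3 CPM in Root eGFP cells against 744.9 CPM in Asc-GFP (-0.76) and 434.4 CPM in Root tdTomato cells against 657.1 CPM in Asc-RFP (-0.60), and Cp, the copper oxidase ceruloplasmin, was at 47.5 against 7.82 CPM (2.60) and 94.8 against 24.2 CPM (1.97).

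Of 4 measured other cross-linkers 1 was lower in Asc-GFP than in Asc-RFP and in Root eGFP than in Root tdTomato cells, F13a1, which was at 1.30 CPM in Root eGFP against 41.1 CPM in Root tdTomato cells (-4.98) beside macrophage markers at 34.3 against 1097 CPM. Tgm2, the tissue transglutaminase, was at 125.7 CPM in Root tdTomato cells against 197.5 CPM in Asc-RFP (-0.65). Of all genes, 1.66% were higher and 1.93% lower in Asc-GFP than in Asc-RFP, and 3.86% were lower in Root eGFP than in Root tdTomato cells. Of 16 measured TGF-beta and hypoxia genes 1 was higher and 1 lower in Asc-GFP than in Asc-RFP: Epas1, which encodes the hypoxia factor HIF-2alpha, at 98.1 against 37.0 CPM (1.41), and Tgfb2 at 161.8 against 230.3 CPM (-0.51). Of 7 measured mesenchymal factors 2 were higher and 1 lower in Asc-GFP than in Asc-RFP, Twist1 being at 27.3 against 48.4 CPM (-0.83), and Prrx2 was at 44.5 CPM in Arch-GFP against 6.85 CPM in Asc-GFP (2.70). Of 21 measured genes of heritable thoracic aortic disease, 2 were lower and 2 higher in Root eGFP cells than in Asc-GFP, where 7.79% of all genes passed. In Root tdTomato cells against Asc-RFP 2 were lower and 1 higher, where 8.18% passed, and in Arch-GFP against Root eGFP cells 2 were lower and 3 higher, where 12.2% passed. In Asc-GFP against Asc-RFP 1 was lower, and 0 were past the fold in Arch-GFP against Asc-GFP and between the Root groups.

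Of the 108 measured genes on these lists, 17 were higher and 6 lower in female than in male cells in all 5 groups, among them Col1a1, Col1a2 and Col3a1, Fbn1, Fbln5 and Mfap5 on the higher side and Col4a1, Col4a2, Acta2 and Mylk on the lower side. Over all genes off X and Y the shares were 1.46% higher and 1.23% lower. These shares were not matched for level, and genes with more UMIs pass this rule more easily, so the counts are not read as a result about the lists.

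For the members that spanned at least 1 log2 unit over the 5 groups, the genes with the nearest profile were found among 6039 genes by the root mean square difference of centred log2 levels over the 5 groups. For Loxl2 these were Tmem108 (0.22), Clmp (0.25), Lsp1 (0.27), Abi3bp (0.28) and Antxr2 (0.28). Tmem108 stood at 12.8 CPM in Arch-GFP, 7.17 CPM in Root eGFP, 11.5 CPM in Root tdTomato, 11.9 CPM in Asc-GFP cells and 22.3 CPM in Asc-RFP cells. For Loxl3 they were Sema3d (0.11), Tram2 (0.11), Bop1 (0.12), Eln (0.12) and AA465934 (0.12), so that elastin itself was among the genes nearest to Loxl3. With 5 groups from 4 libraries, many genes can lie this close.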

How the data were processed

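Single-cell RNA was counted in 4 libraries, 1 per group. Per the labels' protocols, aortic segments were digested with enzymes in the cold and ITGA8-positive cells sorted, then captured for 10x 3′ v3.1 sequencing. The deposited values are raw UMI counts, and per the file headers Cell Ranger 7.0.0 made them. The submitters' processing notes name mm10 as the build and Seurat 4.3 as a later tool. The barcodes in the files, 10506, 4040, 8845 and 6539 in Arch-GFP, Root, Asc-GFP and Asc-RFP, equal the cells stated before filtering, against 4710, 1841, 4050 and 2450 stated after it. The filter used here (at least 1000 genes, at most 10% mitochondrial UMIs) kept 8031, 2960, 6408 and 4030.

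UMIs were summed per group and given as CPM with exact 95% intervals (scipy 1.17.1). These cover counting error only, and no test was made. Of the 32287 features, 32158 were matched to GENCODE M21. The summing and the ratios were tested on simulated data. For shares and cell ranks each cell was thinned to 4000 UMIs, and shallower cells were left out. Female cells have Xist and no Y-linked UMIs, and male cells the reverse. Cells with both, 10.2%, 1.93%, 9.47% and 5.26%, were kept. No doublet caller was used and free RNA was not removed. Leiden clusters (scanpy 1.11.5, 2000 variable genes, 30 components, 15 neighbours, resolution 0.5) were named from marker lists. Leading genes needed 100 CPM, a floor set after the clusters were seen. The ranking of cells by Eln, collagen and other genes was also chosen after the data were seen. Members and lists were chosen with earlier results of these data known. All 5 members were named, and of each list up to 3 genes per comparison with at least 20 CPM and a log2 ratio of at least 0.5, by the interval bound nearest 0. Alternatives covered scaling, cell filters, cell types, sex, cell weight, depth, reporter limits, floor, fold and shared clusters.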

Additional observations from a re-analysis of the deposited data

How the results depend on the processing

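No paired analysis was possible because each group is 1 library, and no replicate could be left out for the same reason. Depth limits Loxl4 everywhere and Loxl2 and Loxl3 in Root eGFP cells, where they rest on 70 and 118 UMIs. Of 328 alternative values of the 24 log2 ratios of Lox, Loxl1, Loxl2 and Loxl3, 285 lay within the counting interval of the value reported and 43 outside it, and no ratio past the fold changed sign. The sign changed in 7 values of 4 ratios, all of them small: Lox between the Root groups (-0.07) and Lox in Root tdTomato cells against Asc-RFP (0.12) within shared clusters, Loxl1 between the Root groups (-0.22 in male cells), and Loxl2 in Root eGFP cells against Asc-GFP (0.09 in male cells).

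The count of members past the fold moved by over 1.5 times as follows. With no floor it was 2 in Asc-GFP against Asc-RFP and 2 in Root eGFP cells against Asc-GFP, Loxl4 being added, and 31.3% and 40.1% of all genes then passed. With a floor of 20 CPM it was 0 in Root eGFP against Root tdTomato cells, 0 in Arch-GFP against Asc-GFP and 1 in Root tdTomato cells against Asc-RFP. At a log2 ratio of at least 1 it was 0 in those 3 comparisons and 0 in Root eGFP cells against Asc-GFP, and 1 in Arch-GFP against Root eGFP cells. Within shared clusters it was 1 between the Root groups, 0 in Arch-GFP against Asc-GFP and 2 in Root eGFP cells against Asc-GFP. In female cells it was 2 in Root eGFP cells against Asc-GFP, and in male cells 1 in Root tdTomato cells against Asc-RFP. Of the alternatives added after seeing the data, leaving out the immediate-early cluster 1 gave 0 in Root eGFP cells against Asc-GFP, and leaving out cluster 6 gave 0 in Arch-GFP against Asc-GFP. By construction, the floors and folds act on how many members can pass. For the others the cause was not tested. In Root eGFP cells against Asc-GFP the count stayed at 1 but the member was Loxl2 and not Loxl3 with the stricter cell filter and after thinning, and Loxl1 in male cells. Smaller moves were to 3 between the Root groups and 4 in Arch-GFP against Root eGFP cells with no floor, Loxl4 being added. In Arch-GFP against Root eGFP cells it was also 4, with Lox added, in female cells, in male cells, after thinning and without cluster 1, and it was 2 with a floor of 20 CPM and within shared clusters.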

Other observations

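Cells with RNA of the proteoglycans Lum and Dcn, which were a larger share of Root tdTomato cells than of the other groups, were also compared with cells that had none. Among thinned Root tdTomato cells, Lox was at 87.3 CPM (61.4 to 120.3) in the 106 cells with at least 3 UMIs of Lum and Dcn, against 133.5 CPM (124.5 to 142.9) in the 1543 cells with none. Loxl1 was at 122.6 CPM (91.6 to 160.8) against 101.3 CPM (93.5 to 109.5) in the same cells. In Arch-GFP, Loxl1 was at 271.7 CPM (201.7 to 358.3) in the 46 such cells against 165.0 CPM (160.3 to 169.9) in the 7041 cells with none, and Lox at 179.4 CPM (123.5 to 251.9) against 198.0 CPM (192.8 to 203.3). The intervals were apart for Lox in Root tdTomato cells and for Loxl1 in Arch-GFP, and overlapped for Loxl1 in Root tdTomato cells and Lox in Arch-GFP. With at least 1 UMI instead, Lox in Root tdTomato cells was at 116.1 CPM (96.1 to 139.1). Loxl1 in Arch-GFP was then at 189.7 CPM (160.9 to 222.1), and both intervals overlapped those of cells with none. With at least 3 UMIs, Lox was not lower in the other groups. Root eGFP cells had 333.3 against 136.6 CPM (6 such cells). Asc-GFP had 203.5 against 170.4 CPM and Asc-RFP 148.5 against 146.8 CPM. All these intervals, and those of Loxl1 there, overlapped. Loxl2 and Loxl3 had too few UMIs in these cells to show a difference, for example 5 and 6 UMIs in Root tdTomato cells. These cells were picked by their own RNA after the data were seen, and no test was made.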
